A study of Mus musculus with 6 samples.

Results

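Hox genes encode homeodomain transcription factors that mark position along the body and along the limb. They were described here in the soleus, a slow muscle of the lower hindlimb, with and without the G protein subunit Gα13 in muscle. The members were chosen by name alone: all gene symbols of the array made of Hox, a cluster letter from a to d and a position number. This gave 38 of the 23152 genes measured, 10 in the Hoxa cluster, 10 in Hoxb, 9 in Hoxc and 9 in Hoxd. The 38 genes were read by 227 probe sets, from 2 for Hoxa11 and Hoxd4 to 14 for Hoxa7.

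The mice were male, 18 weeks old and fasted for 14 h. The 3 control mice (WT) had the genotype Gna13 flox/flox, with both Gna13 alleles flanked by loxP sites. The 3 muscle knockout mice (MKO) had the genotype Ckmm-Cre; Gna13 flox/flox, the same alleles with Cre recombinase driven by the muscle creatine kinase promoter. That promoter is active in skeletal and heart muscle fibres, so the other cells of the muscle keep Gna13. The controls carried no Cre, so an effect of Cre itself and one of the deletion cannot be told apart. Each mouse gave 1 Affymetrix whole-transcript array of total RNA, and per the labels each array of a group came from its own mouse.

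The Hox genes of mammals lie in 4 clusters, and genes with the same position number in different clusters are paralogues that descend from one ancestor. Low numbers are used toward the head and high numbers toward the tail, in the order in which the genes lie in the cluster. In the limb, posterior Hox genes pattern the skeleton and the muscles from the thigh to the foot, and the Hox11 paralogues act in the lower segment, where the soleus lies. Connective tissue cells of the adult limb are known to keep much of this code. Hox proteins bind DNA together with Pbx, Meis and Pknox proteins, Polycomb proteins keep Hox genes silent, and trithorax proteins keep them active.

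Hoxa11 and Hoxb4 were the members with the smallest p in the comparison of MKO with WT, so the 250 bases before their start sites are shown. The sequences are from RefSeq (GRCm38.p6), and capitals mark the dinucleotide CG.
Hoxa11 promoter (chr6:52245811-52246060, minus strand): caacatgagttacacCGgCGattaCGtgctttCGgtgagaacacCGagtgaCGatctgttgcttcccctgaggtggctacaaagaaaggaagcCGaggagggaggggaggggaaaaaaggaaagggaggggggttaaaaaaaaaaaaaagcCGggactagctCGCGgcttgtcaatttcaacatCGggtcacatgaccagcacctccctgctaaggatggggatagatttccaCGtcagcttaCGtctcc
Hoxb4 promoter (chr11:96318017-96318266, plus strand): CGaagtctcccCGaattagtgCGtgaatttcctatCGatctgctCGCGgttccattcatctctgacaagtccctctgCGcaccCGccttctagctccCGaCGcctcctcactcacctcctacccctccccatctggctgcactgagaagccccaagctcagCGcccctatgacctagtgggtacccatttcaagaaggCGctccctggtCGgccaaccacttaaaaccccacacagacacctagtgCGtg
Both stretches were rich in CG, with 13 in Hoxa11 and 14 in Hoxb4. The 24 listed promoters of 22 Hox genes had a median of 12.5 CG, from 2 to 35, where all 32851 listed promoters had a median of 6. Their median GC content was 58.6%, against 52.4% over all promoters.

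Short motifs were searched on both strands of the same 250 bases. CCAAT was present in 14 of the 24 Hox promoters (58.3%, against 33.8% of all promoters), GGGCGG in 10 (41.7% against 32.7%) and TATAAA in 4 (16.7% against 12.4%). TGATNNAT, the form bound by Hox and Pbx proteins together, was present in 4 (16.7% against 7.68%) and the homeodomain core TAATTA in 2 (8.33% against 4.84%). The CArG box, bound by serum response factor, was present in 0 of them and in 1.47% of all promoters. The windows of Hoxa11 and Hoxb4 held none of these letters. Motifs were counted separately, so overlapping matches count for each, and the counts were not tested.

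The clusters also hold microRNA genes, of which the miR-10 and miR-196 families lie between Hox genes and are known to bind Hox transcripts. Their mature 5p sequences are shown because the array reads some of their precursors, with the seed (bases 2 to 8) in capitals (RefSeq, GRCm38.p6).
miR-10a-5p (Hoxb cluster, chr11:96317186-96317208, plus strand): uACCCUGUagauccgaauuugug
miR-10b-5p (Hoxd cluster, chr2:74726074-74726096, plus strand): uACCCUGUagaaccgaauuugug
miR-196a-5p (Hoxb cluster, chr11:96265187-96265208, and Hoxc cluster, chr15:102973365-102973386, plus strand): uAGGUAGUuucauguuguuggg
miR-196b-5p (Hoxa cluster, chr6:52230129-52230150, minus strand): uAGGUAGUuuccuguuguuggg
The miR-10 pair shares the seed ACCCUGU and the miR-196 set shares AGGUAGU.

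Values are log2 values made by robust multi-array averaging (RMA), and a gene's value on an array is the mean of its probe sets. Probe sets differ in how well they bind, so the order of levels between genes is a rough description. As a mark of dim values, the 95th percentile of 1075 olfactory receptor genes stood at 4.07, and that of single olfactory receptor probe sets at 4.43. Levels of these genes ran from 0.91 to 5.87, with a median of 2.18, so the mark is a rough one. As a check of the genotype, 1 of the 7 Gna13 probe sets, 17257825, was lower in MKO without overlap of the groups, at 3.43, 4.25 and 4.33 against 5.48, 6.23 and 6.16 in WT. Its log2 difference was −1.95 (SE 0.42, limma unadjusted p = 0.000957, adjusted p = 0.979 over all probe sets), while 17257824, 17257828 and 17257829 lay higher in MKO with no overlap of the groups. The groups overlapped in the other 3, of which 17257823 differed by −0.37 (SE 0.34). Median probe set values per array lay between 4.87 and 4.95. All 12 muscle fibre markers were above the dim mark, with array means between 10.33 and 10.41. Tbx4 and Pitx1, which specify the hindlimb in the embryo, stood at 5.64 and 4.70, and Tbx5, their forelimb counterpart, lay below the mark at 3.80.

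Hoxc10 was the brightest Hox gene of the soleus on every array. It stood at 7.70, 7.71 and 7.81 in WT and at 7.65, 7.70 and 7.80 in MKO, above 94.6% of all genes. All 4 of its probe sets were above the dim mark, from 7.0 to 9.27. Hoxc10 belongs to the posterior genes that pattern the hindlimb and the lumbar region. It was the 1 Hox gene above the 75th percentile of all genes. It ranked first by the mean over probe sets, by the median, and by the mean over bright ones alone, those above the median of all probe sets.

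The next 9 genes in the order of WT levels had no break between neighbours. Hoxc9 stood at 5.72 ± 0.21 in WT (SD, n = 3), Hoxd8 at 5.63 ± 0.06, Hoxa7 at 5.52 ± 0.08, Hoxa4 at 5.50 ± 0.11, Hoxc4 at 5.44 ± 0.20, Hoxa6 at 5.17 ± 0.16, Hoxa9 at 5.15 ± 0.05, Hoxd10 at 5.02 ± 0.23 and Hoxa10 at 4.90 ± 0.02. Of the 37 pairs of neighbours in the order of WT levels, the WT arrays lay apart in 2, Hoxc10 above Hoxc9 and Hoxa10 above Hoxa13. Hoxa13, a gene of the foot, stood at 4.73 ± 0.06 in WT, and Hoxa10 is a gene of the thigh and the lumbar region.

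**Figure D1:**
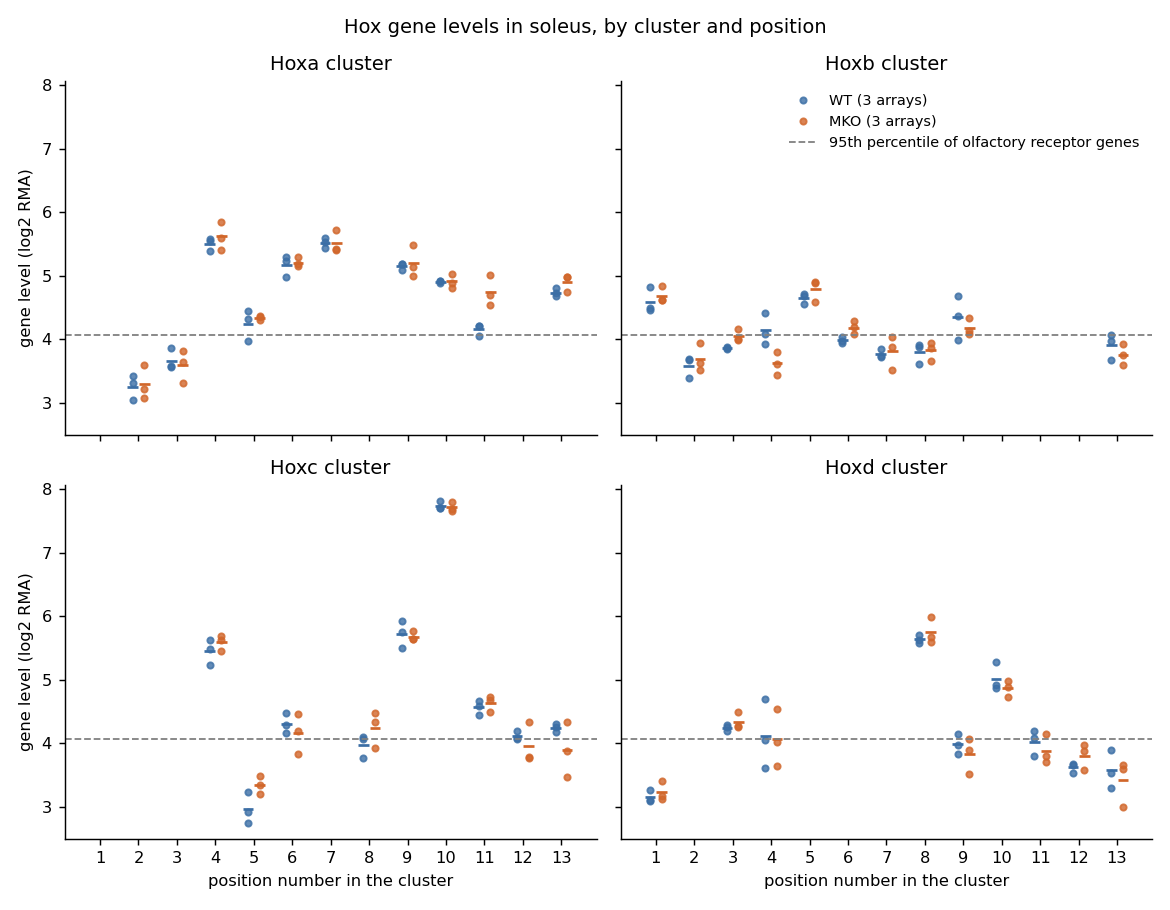
Gene level (log2 RMA) of 38 Hox genes against position number, 1 panel per cluster, with a point per array, short lines for group means and a dashed line at the 95th percentile of olfactory receptor genes (4.07). Hoxc10 stands alone near 7.7, most Hoxb genes lie near the line, and WT and MKO points overlap for most genes.

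The clusters differed in how many members were above the dim mark. It was passed by 8 of 10 Hoxa genes (median level 4.86), 7 of 9 Hoxc genes (4.23), 4 of 10 Hoxb genes (3.92) and 4 of 9 Hoxd genes (3.95). In all 23 of 38 Hox genes passed it (60.5%), where 58.3% of all genes did. Hoxb6 and Hoxc8 passed it with WT means of 3.98. Hoxb4, at 4.14 in WT, and Hoxc12, at 4.12, did not. The median Hox gene stood at 4.17, against 4.41 for all genes. By position, 2 of 7 anterior genes (1 to 3), 11 of 15 central genes (4 to 8) and 10 of 16 posterior genes (9 to 13) were above the mark.

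The anterior genes serve the hindbrain and neck in the embryo. Of them, Hoxb1 (4.59 ± 0.20 in WT) and Hoxd3 (4.24 ± 0.05) were above the mark. Hoxa2 (3.25 ± 0.19), Hoxd1 (3.15 ± 0.10), Hoxb2 (3.58 ± 0.17), Hoxa3 (3.66 ± 0.17) and Hoxb3 (3.86 ± 0.02) were below it. Hoxb1 is a hindbrain gene, and its probe sets ranged from 3.61 to 5.41.

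Among the posterior genes, all 3 position 10 members were above the mark, as were Hoxa9, Hoxb9 (4.34 ± 0.35) and Hoxc9 of position 9. At position 11, the lower leg group, Hoxc11 stood at 4.56 ± 0.11 in WT, Hoxa11 at 4.15 ± 0.10 and Hoxd11 at 4.02 ± 0.20. Position 12 was dim, with Hoxc12 at 4.12 ± 0.07 and Hoxd12 at 3.62 ± 0.08 and both below the mark over all 6 arrays. At position 13 Hoxa13 was above it, Hoxc13 (4.24 ± 0.06) lay at it, with 4.07 over all 6 arrays, and was counted as above, and Hoxb13 (3.90 ± 0.21) and Hoxd13 (3.57 ± 0.30) were not. Across genes, level and position had a Spearman rho of 0.26 in Hoxa, −0.14 in Hoxb, −0.10 in Hoxc and −0.18 in Hoxd, over 10, 10, 9 and 9 genes read by different probe sets.

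The mean over probe sets hid bright single probe sets in several genes. Of the 227 Hox probe sets, 113 were above the dim mark for probe sets. Hoxa7 had probe sets from 1.57 to 9.36, Hoxd3 from 1.28 to 8.20, Hoxa6 from 2.80 to 7.99, Hoxa3 from 1.0 to 7.57 and Hoxb7 from 1.76 to 7.21. Hoxb6, a gene of the lateral plate mesoderm from which limbs grow, had 1 bright probe set at 6.79 among 6. Hoxd12 and Hoxd13 had none above the mark. With only probe sets above the median of all probe sets 32 Hox genes were left, and Hoxb6 ranked next after Hoxc10.

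No Hox gene passed limma's test of MKO against WT after adjustment over all genes (0 of 38, and 0% of all genes). At an unadjusted p under 0.05 there were 2 (5.26%), against 4.33% of all genes. Hoxa11 was higher, where 1.92% of all genes were, and Hoxb4 was lower, where 2.41% were. The re-implemented local pooled error test that the authors' methods name also called 0 after adjustment. MKO and WT values did not overlap for 4 Hox genes (10.5%), against 9.25% of all genes, so the members' share was near the background. An exact permutation test of 3 against 3 cannot give a two-sided p below 0.1.

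Hoxa11, a gene of the lower limb segment and the kidney, stood at 4.04, 4.21 and 4.21 in WT and at 4.69, 5.0 and 4.54 in MKO. Every MKO array was above every WT array. The log2 difference was 0.59 (SE 0.17, 95% interval 0.23 to 0.95, limma unadjusted p = 0.00368, adjusted p = 0.9997). It rests on 2 probe sets: 17466888 was higher in MKO by 0.88 (SE 0.42) without overlap of the groups, and 17466889 by 0.30 (SE 0.51) with overlap and a level below the dim mark. Another 7 probe sets are annotated to both Hoxa11 and its antisense transcript Hoxa11as, and their signal cannot be assigned to either transcript here. Of these 7, 3 were higher and 4 lower in MKO, and the groups overlapped in all 7. The 4 lower ones lay below the dim mark for probe sets, and 17466891, higher by 0.49, lay above it. Of the 4 shared probe sets whose IDs follow those of Hoxa11, 2 were higher and 2 lower. With all 9 probe sets Hoxa11 stood at 3.61, 3.74 and 3.90 in WT and 3.94, 3.79 and 3.60 in MKO, a difference of 0.03 (SE 0.17, limma unadjusted p = 0.875), a setting chosen after seeing the data. The higher value of Hoxa11 was therefore seen in the mean of its 2 own probe sets and not in that of the full set, most of which was dim. Read by 4 probe sets of its own, Hoxa11as stood at 4.16, 4.06 and 4.70 in WT and 4.68, 4.26 and 4.46 in MKO, with overlap.

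Hoxb4, a central gene known for its role in blood stem cells, stood at 4.08, 4.41 and 3.92 in WT and at 3.61, 3.44 and 3.80 in MKO. Every MKO array was below every WT array. The log2 difference was −0.52 (SE 0.18, 95% interval −0.92 to −0.13, limma unadjusted p = 0.0136, adjusted p = 0.9997). The gene lay below the dim mark, at 3.88 over all 6 arrays. Of its 6 probe sets, 5 were lower in MKO and 1 higher, and 2 were above the dim mark for probe sets. The groups overlapped in both of these. They did not overlap in 17255599 and 17255601, which lay below that mark at 2.26 and 3.12. The brightest, 17255600, stood at 7.10, 6.87 and 7.01 in WT and 7.24, 6.48 and 6.45 in MKO. The groups overlapped there because MKO replicate 1 was the highest of the 6 arrays. The unadjusted p was 0.0736 without WT replicate 2 and 0.0557 without MKO replicate 2, both above 0.05.

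**Figure D2:**
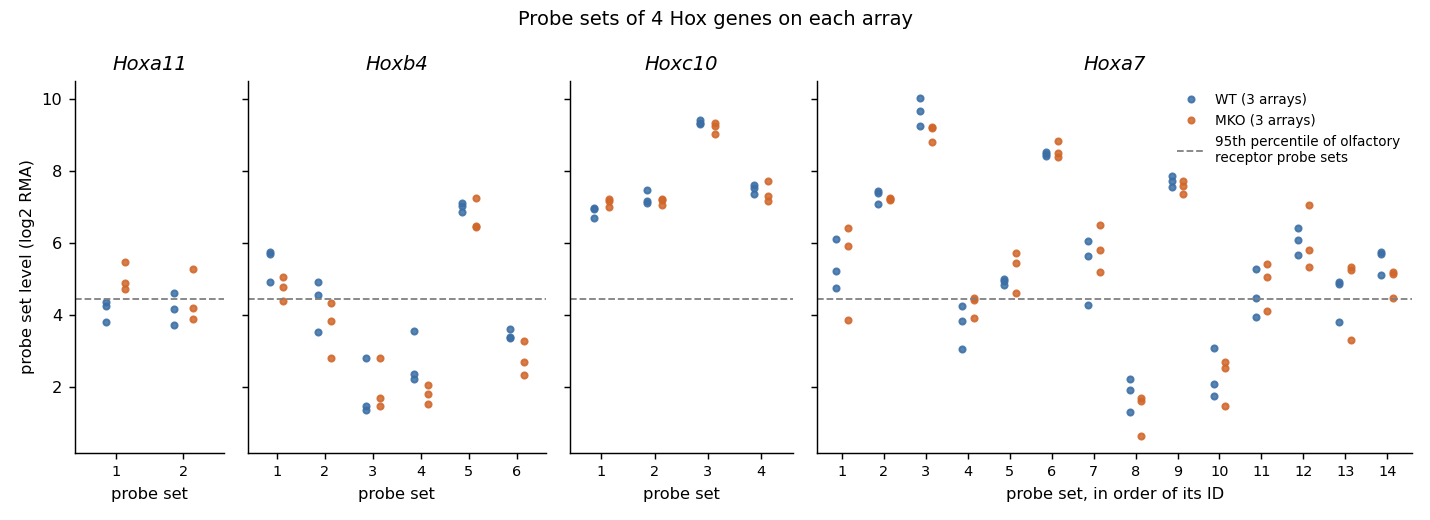
Probe set level (log2 RMA) on each array for Hoxa11, Hoxb4, Hoxc10 and Hoxa7, with probe sets in the order of their IDs and a dashed line at the 95th percentile of olfactory receptor probe sets (4.43). All 4 Hoxc10 probe sets lie above the line and group closely, while the mean levels of the Hoxa7 probe sets span 1.57 to 9.36.

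The other 2 Hox genes without overlap of the groups, Hoxb6 and Hoxb3, differed by more than the SD of either group but by little more than limma's SE, which draws on the spread of all genes. Hoxb6 stood at 4.04, 3.93 and 3.97 in WT and 4.08, 4.19 and 4.28 in MKO, a difference of 0.20 (SE 0.15, limma unadjusted p = 0.213, adjusted p = 0.9997). Its 1 bright probe set, 17255586, stood at 6.87, 6.15 and 6.58 in WT and 7.23, 6.92 and 7.01 in MKO. The difference there was 0.52 (SE 0.25, limma unadjusted p = 0.0642, adjusted p = 0.979 over all probe sets). With only probe sets above the median of all probe sets, Hoxb6 was read by this same probe set alone. The gene fit then gave the same difference of 0.52 (limma unadjusted p = 0.0185, adjusted p = 0.9998). Hoxb3 stood at 3.88, 3.84 and 3.85 in WT and 4.01, 4.15 and 3.99 in MKO, a difference of 0.19 (SE 0.15, limma unadjusted p = 0.237, adjusted p = 0.9997), with 8 of its 11 probe sets higher.

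Hoxc5 and Hoxc13 completed the set of 6 named by the smallest p. Hoxc5, the dimmest member, stood at 2.92, 3.22 and 2.75 in WT and 3.48, 3.20 and 3.34 in MKO, a difference of 0.38 (SE 0.18, limma unadjusted p = 0.0601, adjusted p = 0.9997). All 5 of its probe sets were higher in MKO, but MKO replicate 2 lay just under WT replicate 2 and the gene was below the dim mark. Hoxc13, a gene of hair and nail, stood at 4.30, 4.18 and 4.25 in WT and 4.33, 3.88 and 3.46 in MKO, a difference of −0.35 (SE 0.21, limma unadjusted p = 0.113, adjusted p = 0.9997). All 4 of its probe sets were lower on average, and its MKO values were more spread (SD 0.44) than its WT values (SD 0.06). Without MKO replicate 1 the difference was −0.57 (limma unadjusted p = 0.00921), and without MKO replicate 3 it was −0.14 (limma unadjusted p = 0.484).

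The bright Hox genes had the narrowest intervals. For Hoxc10 the difference was −0.02 (95% interval −0.23 to 0.19), for Hoxc9 −0.05 (−0.35 to 0.26), for Hoxa7 0.00 (−0.30 to 0.30), for Hoxa10 0.01 (−0.30 to 0.31) and for Hoxd8 0.11 (−0.19 to 0.42). Of the 38 Hox genes, 21 had an interval within 0.5 of 0 on the log2 scale and all 38 had one within 1. The median half-width was 0.37. Hoxd4, read by 2 probe sets of its own and 9 shared with Hoxd3, had the widest half-width at 0.60.

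**Figure D3:**
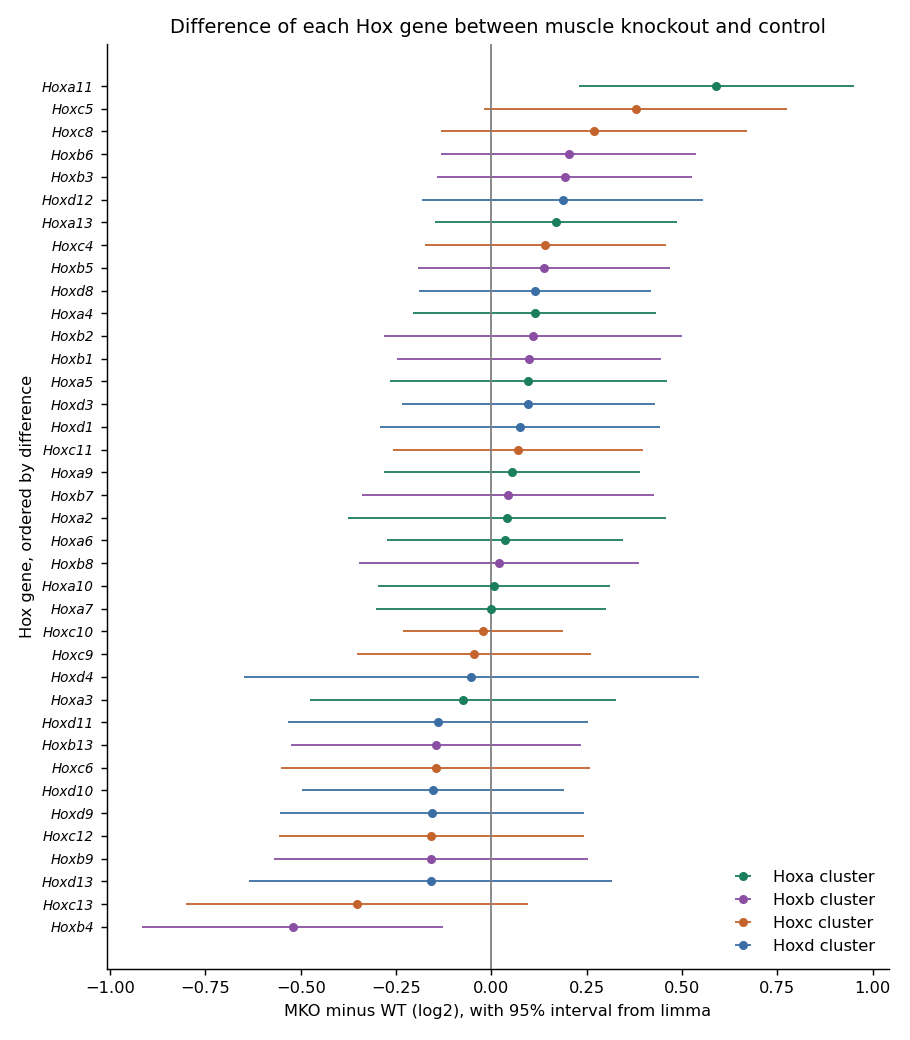
MKO minus WT difference (log2) of the 38 Hox genes with the 95% interval from limma, ordered by size and coloured by cluster. The intervals of Hoxa11 (0.23 to 0.95) and Hoxb4 (−0.92 to −0.13) leave out 0 before adjustment, and the other 36 include it.

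Small differences were more often above 0 than below it. MKO was higher than WT for 23 of 38 Hox genes (60.5%), with a median difference of 0.04, where 46.6% of all genes were higher with a median of −0.01. Olfactory receptor genes had a like share, 677 of 1075 (63.0%), and a median of 0.06. Of 5527 other genes between the quartiles of the Hox levels (3.84 and 4.88), 44.0% were higher, with a median of −0.02. With the arrays centred on the olfactory receptor genes, 17 of 38 Hox genes were higher (44.7%) and the median turned to −0.02. Over all genes this setting gave 31.6% higher and a median of −0.08. Median centring gave 25 of 38 (65.8%), against 53.0% of all genes. Quantile normalization also gave 25 of 38 (65.8%), against 50.3% of all genes. Its medians were 0.0467 for the Hox genes and 0.0044 for the olfactory receptor genes. Among these scalings, the sign of the members' median turned only with olfactory receptor centring, a setting chosen after seeing the data. The members' share higher in MKO stayed above that of all genes in each of these scalings, which was not tested.

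Anterior and central genes were higher in MKO in 17 of 22 cases and posterior genes lower in 10 of 16. The medians were 0.10 for anterior, 0.10 for central and −0.09 for posterior genes. By cluster, 8 of 10 Hoxa genes and 7 of 10 Hoxb genes were higher, and 4 of 9 each in Hoxc and Hoxd. Across genes, which share arrays, difference and position had a Spearman rho of −0.29 over 38 genes. Within clusters it was 0.42 in Hoxa, −0.44 in Hoxb, −0.70 in Hoxc and −0.35 in Hoxd, so Hoxa ran the other way. These splits were not tested.

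Single probe sets gave few differences. Of the 227 Hox probe sets, 0 passed adjustment by limma, and 2 had an unadjusted p under 0.05 (0.881%, against 4.98% of all probe sets), both lower in MKO. The groups did not overlap in 26 (11.5%, against 9.9% of all probe sets). The first, 17466849, is the brightest of Hoxa7 and stood at 10.03, 9.26 and 9.65 in WT and 9.21, 8.80 and 9.20 in MKO (difference −0.58, SE 0.20, limma adjusted p = 0.979). The other 13 Hoxa7 probe sets went both ways, and the gene as a whole had 8 higher and 6 lower. The second, 17255537 of Hoxb13, lay below the dim mark, at 3.92, 4.50 and 4.95 in WT and 3.36, 2.83 and 3.56 in MKO.

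Noncoding transcripts of the clusters overlapped between the groups, and 4 of the 8 measured were above the dim mark. Hotair, transcribed from the Hoxc cluster, stood at 4.14, 4.40 and 4.50 in WT and 4.77, 4.37 and 4.53 in MKO (difference 0.21, SE 0.17). The array names 1700109F18Rik, now Hoxd3os1, differed by 0.33 (SE 0.19). The precursor of miR-196a in the Hoxb cluster, Mir196a-1, differed by 0.24 (SE 0.18) at a level of 3.99, and that in the Hoxc cluster, Mir196a-2, by −0.02 (SE 0.17) at 3.58. Mir10b stood at 1.80, well under the dim mark. Of the 8 measured transcripts of this list 5 were higher and 3 lower, with 0 at an unadjusted limma p under 0.05. Of all genes 46.6% were higher, 4.33% had such a p and 9.25% had groups that did not overlap.

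Genes of the proteins that work with Hox factors are given beside all genes, of which 46.6% were higher in MKO and 4.33% had an unadjusted limma p under 0.05. For 9.25% of all genes the groups did not overlap. Of 8 TALE class cofactors, 6 were lower and 2 higher in MKO, with a median difference of −0.11 and 0 at an unadjusted limma p under 0.05. The brightest was Pknox2, at 6.83, 6.77 and 6.79 in WT and 6.62, 6.78 and 7.06 in MKO. Pknox1, a partner of Pbx proteins, stood at 4.79, 5.21 and 4.84 in WT and 4.69, 4.64 and 4.73 in MKO, with every MKO array below every WT array (difference −0.26, SE 0.16, limma unadjusted p = 0.117). Meis2 differed by 0.22 (SE 0.18) and Pbx4 by −0.20 (SE 0.18), both with overlap.

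**Figure D4:**
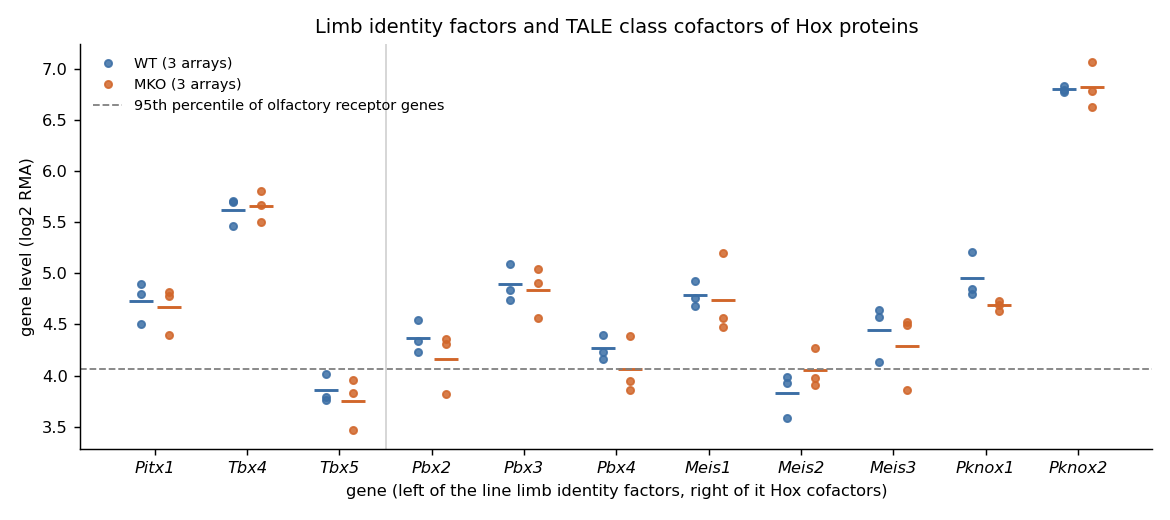
Gene level (log2 RMA) on each array for the limb identity factors Pitx1, Tbx4 and Tbx5 and for 8 TALE class cofactors, with short lines for group means and a dashed line at the 95th percentile of olfactory receptor genes (4.07). Tbx4 lies above the line and Tbx5 below it, Pknox2 is the brightest cofactor, and Pknox1 is the 1 gene shown whose groups do not overlap.

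Polycomb genes, which silence Hox loci, were lower for 17 of 27 and higher for 10 (37.0%), with a median of −0.04 and 1 (3.7%) at an unadjusted limma p under 0.05, a share near that of all genes. This was Yaf2, a subunit of Polycomb complexes, at 6.91, 7.05 and 6.54 in WT and 6.38, 6.56 and 6.12 in MKO (difference −0.48, SE 0.15, limma unadjusted p = 0.00857, adjusted p = 0.9997). MKO replicate 2 lay above WT replicate 3, so the groups overlapped. Pcgf6, below the dim mark at 3.64, differed by −0.30 (SE 0.17) without overlap of the groups, and Jarid2 by −0.20 (SE 0.14). Trithorax and H3K27 demethylase genes, which oppose silencing, had a median of −0.01, with 10 of 13 lower. Kdm6b, a demethylase that removes the Polycomb mark, stood at 6.78, 6.81 and 6.84 in WT and 6.71, 6.60 and 6.52 in MKO without overlap (difference −0.20, SE 0.11, limma unadjusted p = 0.0885). Wdr5 and Mll3, now Kmt2c, differed by 0.13 (SE 0.13) and 0.11 (SE 0.13).

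Limb patterning factors were lower for 28 of 37, with a median of −0.07 and 0 at an unadjusted limma p under 0.05. The limb identity genes did not pass either: Tbx4 differed by 0.04 (SE 0.14), Pitx1 by −0.07 (SE 0.17) and Tbx5 by −0.10 (SE 0.18). The smallest p in this list were those of Irx5 (−0.22, SE 0.15, without overlap of the groups), Msx1 (−0.24, SE 0.17) and Eya2 (0.26, SE 0.19). Of 11 homeobox genes related to the Hox family, 10 were higher (90.9%), with a median of 0.14. Of all genes 46.6% were higher, and of olfactory receptor genes 63.0%. They were led by Evx1 (0.28, SE 0.15), which neighbours the Hoxa cluster, Gsx1 (0.27, SE 0.17) and Pdx1 (0.24, SE 0.18). The groups did not overlap for 9.25% of all genes, and among these 11 for Gbx1 alone (0.21, SE 0.16), which lay below the dim mark. Of the 11, 5 were above the mark.

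Markers of cell types of the muscle were examined beside these values, and the arrays do not assign Hox signal to any of them. Over all genes 46.6% were higher in MKO, 4.33% had an unadjusted limma p under 0.05 and 0 passed adjustment. Of 15 markers of fibroblasts and fibro-adipogenic progenitors, all above the dim mark, 13 were lower and 2 higher, with a median of −0.17. Their mean level lay between 6.94 and 7.27 in WT and between 6.73 and 7.09 in MKO. Pdgfra, which defines these cells, stood at 6.98, 6.52 and 6.76 in WT and 6.24, 6.46 and 6.54 in MKO (difference −0.34, SE 0.14, limma unadjusted p = 0.031). Of 10 tenocyte markers 9 were lower (6.14 to 6.71 in WT, 6.24 to 6.43 in MKO), with Thbs4 at −0.27 (SE 0.12), and of 10 satellite cell markers 7 were lower (5.73 to 5.77 in WT, 5.69 to 5.73 in MKO). At an unadjusted limma p under 0.05 there were 1 of the 15 fibroblast, 2 of the 10 tenocyte and 1 of the 10 satellite cell markers. In whole muscle, fewer cells of a type and less RNA per cell cannot be told apart. Their part in the Hox values was not tested.

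The remaining marker lists gave the following values. Markers were lower for 9 of 10 endothelial genes (median −0.10), with Cldn5 at −0.73 (SE 0.15), for 8 of 10 of pericytes and smooth muscle (−0.08) and for 10 of 10 of macrophages (−0.14), with Cd68 at −0.82 (SE 0.26). They were higher for 6 of 7 lymphocyte genes (0.12) and 4 of 6 Schwann cell genes (0.09), of which 1 and 3 were above the dim mark. Adipocyte, epidermis and cartilage or bone markers were split, with 3 of 7, 4 of 6 and 4 of 8 higher. An unadjusted limma p under 0.05 was found for 1 of 10 markers each in the endothelial, pericyte and macrophage lists. It was found for 1 of 7 lymphocyte and 1 of 8 cartilage or bone markers, and for 4.33% of all genes. In these lists 0 markers passed adjustment, Cldn5 and Cd68 included. The muscle fibre markers had a median of −0.02, and Des, which codes for desmin, differed by −0.23 (SE 0.06, limma unadjusted p = 0.00336, adjusted p = 0.9997). Des was also in the satellite cell list and in that of pericytes and smooth muscle, and was counted as lower in each.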

How the data were processed

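The authors deposited log2 values, made by RMA with Affymetrix Expression Console per the submitters' processing notes. Software versions, the build and the annotation are not given in the sources consulted. The table had 269751 rows with several rows per gene, so rows were taken as probe sets. Of these, 233753 had 1 gene symbol in the platform annotation, 5106 had several and 30892 had none, and the first kind was used; 19 probe sets that name a Hox gene and another symbol were kept for an alternative. A gene's value was the mean of its probe sets. MKO was compared with WT by limma 3.58.1 in R 4.3.3 (lmFit, eBayes with a variance trend), two-sided, with Benjamini-Hochberg adjustment over 23152 genes or 233753 probe sets at 0.05. The number of arrays limits the precision. Tested on simulated data of 23152 genes, limma called 49 of 50 that were shifted by 1 on the log2 scale and 6 of 50 shifted by 0.5. The simulated noise was normal and independent between genes, and genes shifted by 1.5 and 2 were present at once. In the real data 0 genes passed adjustment, with differences from −2.51 to 1.63, so these rates need not hold there.

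Named Hox genes had an unadjusted p under 0.05 or groups that did not overlap, filled to 6 by p. From each other gene list up to 3 members with the smallest p were named; markers, brightest members and genes named for their level or single probe sets were chosen after their values were seen. The members and lists were chosen with earlier results of these data known. Of 124 gene list entries, 99 matched by symbol, 6 by a synonym and 19 did not match; of 115 marker entries 109, 2 and 4. Promoter and microRNA sequences came from RefSeq tables; 22 Hox genes had a promoter entry. Alternatives were limma without trend, with robust moderation, array weights or a replicate block, quantile normalization, median centring, the median of probe sets, only probe sets above the median probe set (bright), genes above the median level, leaving out each array, and a re-implemented local pooled error test. Tables were made with Python 3.11.15.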

Additional observations from a re-analysis of the deposited data

How the results depend on the processing

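No Hox gene passed adjustment under any alternative run (0 of those measured in each). Differences of the 6 named Hox genes kept their sign in each alternative that gave them a value, 16 for Hoxc5 and 17 for each of the others; probe sets above the median gave none for 2 of them, and genes above the median level gave a value for Hoxa11 alone. Hoxc13 ranged from −0.57 to −0.14. Hoxa11 ranged from 0.03 to 0.70, with an unadjusted p under 0.05 in 16 of 17 alternatives, all but that with shared probe sets. Hoxb4 ranged from −0.63 to −0.39, with 14 of 17, and its adjusted p lay between 0.493 and 1.0.

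The count of Hox genes higher at an unadjusted p under 0.05 was 2 without a variance trend or with median centring and 0 with shared probe sets, and 1 to 2 with an array left out. The count lower was 2 with array weights, 0 for genes above the median level, and 0 to 2 with an array left out. Genes without overlap of the groups numbered 1 above the median level, 2 when centred on olfactory receptor genes, and 4 to 9 with an array left out. Groups of fewer arrays separate more easily, so the last counts cannot be set beside those from all 6 arrays. The median difference was 0.0669 with median centring and 0.07 above the median level, 0.0063 with the median of probe sets, −0.0219 when centred on olfactory receptor genes, and 0.0283 to 0.0673 with an array left out. Hox probe sets at an unadjusted p under 0.05 numbered 9 without a variance trend, 4 after quantile normalization, and 1 to 9 with an array left out. Cofactor, regulator and patterning genes at that p numbered 4 with the median of probe sets, 4 with bright probe sets, and 1 to 3 with an array left out. Shares over all genes or probe sets at these settings are not given here, so these counts have no background beside them.

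The labels do not say whether mice with the same replicate number were paired, and they were treated as unpaired. Same-numbered arrays deviated with r of −0.09, 0.09 and −0.24 over genes, which are not independent, so these values cannot settle it. With the replicate block the median was 0.04, and 1 Hox gene was higher and 1 lower, as without it. Shared probe sets and olfactory centring were chosen after seeing the data. Levels near the dim mark and few arrays limit what can be told for most members.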
